A study of Mus musculus with 4 samples.

Results

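Chaperones bind proteins that are not yet folded or have lost their fold, and folding enzymes speed the slow steps of folding, such as the making of disulfide bonds. In the cytosol the HSP70 and HSP90 families act with J-domain proteins (Dnaj), which hand substrates to HSP70, and the ring-shaped CCT complex folds actin and tubulin. In the endoplasmic reticulum a separate HSP70, the lectins calnexin and calreticulin and the protein disulfide isomerases fold secreted, lysosomal and membrane proteins, which phagocytes such as macrophages make in quantity. Mitochondria have an HSP70 and the HSP60 and HSP10 chamber of their own.

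The 76 genes described here are the chaperones and folding enzymes among the 11754 gene symbols of the deposited tag tables. They were chosen by symbol, as all that start with Hsp and a digit, Hspa, Hspb, Hspd, Hspe, Hsph, Dnaj or Pdia, or with Cct and a digit from 2 to 8, together with Tcp1, P4hb, Calr and Canx. No measured value entered the choice. By textbook location 45 were placed in the cytosol (with the nucleus and the surface of vesicles), 21 in the endoplasmic reticulum and 9 in mitochondria. The remaining one, Dnajc22, was not placed and is listed at 0. Hsp90b1, the HSP90 of the endoplasmic reticulum, is deposited under its older symbol Grp94 and so falls outside the rule.

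The libraries were made by SAGE (serial analysis of gene expression), where a short tag beside an NlaIII site (CATG) stands for a transcript. RNA was taken from alveolar macrophages, which patrol the air spaces and clear inhaled matter, of wild-type BALB/c mice. One group (Pre AM) was untreated and without lung metastasis. The other (Day 21 AM) had lung metastasis 21 days after intravenous injection of BNL, a mouse hepatocellular carcinoma cell line. Each group had 2 libraries, and the labels used here do not say how many mice stand behind a library or whether the 2 libraries came from separate mice, so p-values speak only of the spread among these libraries, part or all of which may be technical. No injected group without metastasis is among these samples, so effects of the injection and of the metastasis cannot be told apart.

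Library totals ran from 1630776 to 2198563 counts. Tags read once are absent from the tables, so a count of 0 can stand for a tag with 0 or 1 reads. Of 12 alveolar macrophage markers 11 had a count, with summed levels of 2441 and 5263 CPM (the count relative to the library size after TMM scaling) on day 21 against 1535 and 3968 CPM in untreated mice, although Marco had 2 counts in all and Fabp4 was at 0. Chi3l3, Lyz2 and Ear2 held most of these counts, and each overlapped between the groups. Krt79 had 159 and 29 counts on day 21 against 670 and 514, and Itgax 64 and 71 against 134 and 183. Siglecf (deposited as Siglec5), Pparg and Mrc1 also had fewer counts in both day 21 libraries, which were the smaller ones. Ear1 and Car4 overlapped. Markers of endothelium, T cells, B cells and plasma cells were at 0 or not listed, and those of epithelium, hepatocellular tumour and fibroblasts (1 gene with a count in each list) summed to at most 2.85 CPM. Of these, Sftpc, Sftpb and Lamp3 of epithelium and Alb and Gpc3 of the tumour were not listed, so they could not be counted. Red cell markers (1 of 3 with a count) stood at 23.4 and 61.9 CPM on day 21 against 32.9 and 149 CPM. Markers of monocyte-derived or interstitial macrophages (7 of 7 with a count) summed to 2124 and 3123 CPM on day 21 against 45.2 and 101 CPM. Apoe held most of these counts, with 3036 and 3811 on day 21 against 58 and 192. The other genes of that list also had more counts in both day 21 libraries, though Ccr2 had only 2 and 2 there and C1qa 10 and 7. Neutrophil markers (3 of 5) summed to 74.3 and 273 CPM on day 21 against 9.33 and 154 CPM. Genes induced within minutes by handling of cells (8 of 8) summed to 1777 and 2078 CPM on day 21 against 3365 and 2694 CPM. Most of this was Ier2, and the other 7 genes summed to 138 and 605 CPM against 165 and 434 CPM, with overlap. The part of these cell types and of handling in the results on chaperones was not tested. In such bulk samples fewer cells of a type and less RNA per cell cannot be told apart.

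Of the 76 genes, 59 had a count and 17 were at 0 in all 4 libraries. Their summed share of the library was 0.472% in day 21 replicate 1 and 0.485% in day 21 replicate 2 (exact Clopper-Pearson 95% intervals 0.462% to 0.482% and 0.474% to 0.495%). In the untreated libraries it was 0.507% and 0.681% (0.497% to 0.517% and 0.670% to 0.692%). These intervals cover counting error only, since PCR copies were not told apart. The filter on low counts left 34 genes that could be tested, 17 of the cytosol, 11 of the endoplasmic reticulum and 6 of mitochondria.

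The comparison asked whether macrophages of metastasis-bearing lungs carry other levels of folding genes than those of untreated lungs. No chaperone or folding gene passed the test across all genes. Among the 34, 0 were higher and 0 lower on day 21 at an adjusted p under 0.05 (edgeR quasi-likelihood test, Benjamini-Hochberg adjustment), where 0.671% of all 2979 tested genes were higher and 0.0671% lower. DESeq2 also called 0. At an unadjusted p under 0.05 there was 1 higher gene, Dnajc5, and 1 lower gene, Hsp90ab1, against 3.52% and 2.11% of all genes tested, so the members' share was near the background in each direction. In 6 genes both day 21 libraries lay above both untreated ones and in 11 both lay below, against 15.2% and 16.0% of all genes tested.

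The signs of these small differences were counted by compartment. In the cytosol 13 of 17 tested genes had a negative log2 change (day 21 minus untreated), with a median of -0.32, while the median of all tested genes was -0.07 and 45.6% of them had a positive change. With the most abundant tag of each gene 7 of 16 cytosolic genes were positive, and with 1 library left out 3 to 7 of the 18 to 20 tested were, the 7 without day 21 replicate 2 and the 3 without day 21 replicate 1. In the endoplasmic reticulum 10 of 11 had a positive change, with a median of 0.33, but this was 6 of 11, with a median of 0.05, with total counts in place of TMM scaling. With 1 library left out, 6 to 9 of the 11 or 12 tested genes of the endoplasmic reticulum were positive, with medians from 0.10 to 0.53. In mitochondria 3 of 6 were positive, with a median of 0.02. The difference between the compartments was not tested.

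**Figure D1:**
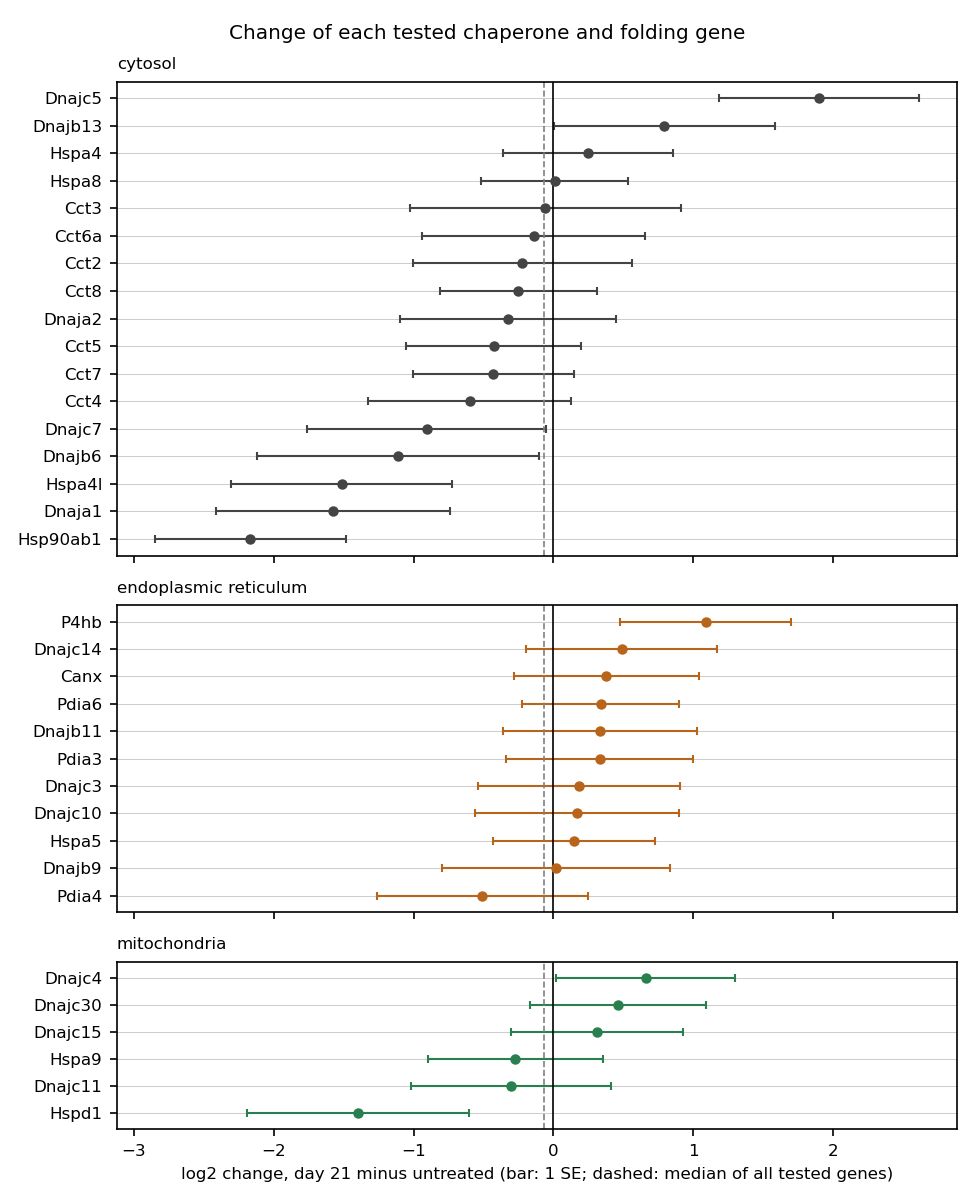
Log2 change (day 21 minus untreated) of the 34 tested genes by compartment, with bars of 1 standard error, a solid line at 0 and a dashed line at the median of all tested genes (-0.07). Most cytosolic points lie left of 0, with Hsp90ab1 lowest at -2.17, and 10 of the 11 points of the endoplasmic reticulum lie right of 0.

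Summed over all members of a compartment, tested or not, cytosolic chaperones stood at 2914 and 2869 CPM on day 21 against 3116 and 4164 CPM in untreated mice. Both day 21 libraries were below both untreated ones. An exact two-sided permutation test gave p = 0.33, the smallest that 2 against 2 libraries allow. Without Hsp90ab1 the sums were 2786 and 2685 against 2882 and 2993 CPM, so that 1 gene held most of the gap. Hsp90ab1 was left out in addition to the alternatives run on these sums. In those alternatives the most abundant cytosolic gene, Hspa8, was left out, which gave 1497 and 1354 CPM on day 21 against 1835 and 2528 CPM. The log2 ratio of the group means was then -0.61, against -0.33 with all members. The endoplasmic reticulum summed to 1581 and 2365 CPM against 1439 and 1663 CPM, and mitochondria to 313 and 392 against 327 and 288 CPM. In these 2 compartments the groups overlapped (exact permutation p = 0.667 for both). Without Pdia6, the most abundant gene of the endoplasmic reticulum, its sums were 883 and 946 CPM on day 21 against 691 and 734 CPM, and the groups did not overlap (exact permutation p = 0.33). The means of these sums were 914 and 713 CPM. P4hb alone averaged 195 CPM on day 21 against 91.7 CPM in untreated mice, so 1 gene held much of this gap too.

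**Figure D2:**
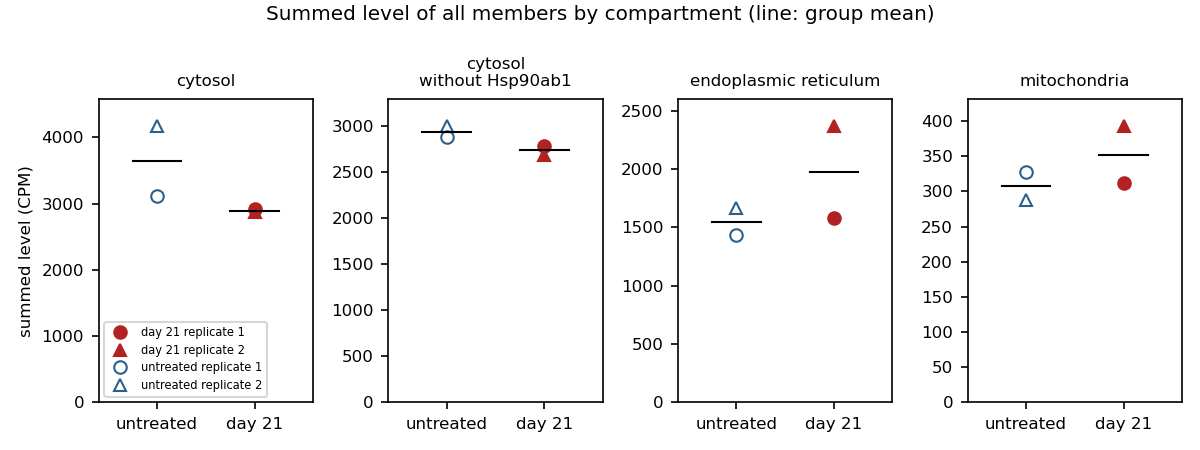
Summed level (CPM, axes from 0) of all members of each compartment in the 4 libraries, with lines at the group means, and of the cytosol without Hsp90ab1. The untreated replicate 2 stands apart in the cytosol at 4164 CPM and falls to 2993 CPM, next to the other libraries, without Hsp90ab1.

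Hsp90ab1, the constitutive HSP90 of the cytosol, which matures kinases and steroid receptors, had the smallest p of all members. Its counts were 225 and 259 on day 21 and 477 and 2866 in untreated mice, or 129 and 184 against 234 and 1171 CPM. The groups did not overlap, and untreated replicate 2 was far above the other 3 libraries. The log2 change was -2.17 ± 0.68 (SE), 4.49-fold lower, with an adjusted p of 0.225 in edgeR's test. Without untreated replicate 2 it was -0.55, and without untreated replicate 1 it was -2.90, so the size rested on untreated replicate 2.

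The counts of Hsp90ab1 were uneven over its tags. Each tag is shown with the CATG of its NlaIII site in capitals, since the deposited tags differ in their place in the transcript, and the main tag and the tag nearest the 3′ end carry different counts.
Hsp90ab1 exon 10 tag: CATGatggccaaaaaacacctggag
Hsp90ab1 last-site tag: CATGtctacaagaatcttctatcct
The exon 10 tag, in the coding sequence (GRCm38 chr17:45568413-45568437, minus strand, exon 10 of 11 of Hsp90ab1-201), had 112 and 182 counts on day 21 against 125 and 2109 counts, with overlap between the groups. The tag at the last NlaIII site (chr17:45567910-45567934, 3′ UTR, exon 11 of 11) had 65 and 43 counts against 254 and 424 counts. So in untreated replicate 2 most of the counts of the gene came from 1 tag that lies 3 NlaIII sites before the last one, while at the last site both untreated libraries were above both day 21 ones. The log2 change of the last-site tag was -2.14 ± 0.67, and the 5 tested tags of the gene all had negative changes, from -2.21 to -1.26. Fitted tag by tag over 3907 tags, 0 of 62 member tags passed (smallest adjusted p = 0.460, for the last-site tag of Hsp90ab1), where 0.358% of all tags did.

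Hsp90aa1, the heat-inducible HSP90 of the cytosol, is listed at 0 in all 4 libraries. It has 11 listed tags, among them the one at the last NlaIII site of its transcript, and 5 of the 11 match no other gene. A count of 0 for each tag allows up to 10.2 counts of the gene in a library at the 95% level (7.28 CPM in the library of smallest scaled size), if the tags share its reads equally and for counting error only. Its tag at the last site, on chr12:110691195-110691219 in the 3′ UTR, was CATGtattagtcttagaagtaaaca.

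Hspa8, the constitutive HSP70 of the cytosol (HSC70), was the most abundant member. Its level was 1417 and 1516 CPM on day 21 and 1282 and 1636 CPM in untreated mice, a log2 change of 0.01 ± 0.53. The groups overlapped. Its sign was not stable, with -0.23 under total counts. The tag with most counts lies in the coding sequence of exon 3 of 9 (chr9:40802575-40802599), 7 NlaIII sites before the last, and also matches transcripts of 5 other genes, so part of these counts may belong to its copies. The tag at the last site (chr9:40805168-40805192, 3′ UTR) matches Hspa8 alone.
Hspa8 exon 3 tag: CATGgttctgacaaagatgaaggaa
Hspa8 last-site tag: CATGgaataataaaactatttaaat
The exon 3 tag had 1724 and 1667 counts against 1759 and 2607 counts, a log2 change of 0.16 ± 0.52. At the last site there were 336 and 86 counts on day 21 and 492 and 561 counts in untreated mice, a log2 change of -0.90 ± 0.69. The 2 tags of 1 gene thus had changes of opposite sign, each within 2 standard errors of 0.

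Hspa4 and Hspa4l are HSP70-type proteins that act as exchange factors and help HSP70 release its substrates. Hspa4 was at 287 and 168 CPM on day 21 against 239 and 145 CPM, with overlapping groups and a log2 change of 0.25 ± 0.61. Its relative Hspa4l was at 6.86 and 5.70 CPM against 26.5 and 9.81 CPM, 2.85-fold lower without passing (log2 change -1.51 ± 0.79, edgeR adjusted p = 0.955). Its untreated replicate 1 was the high library, and without it the log2 change was -0.63. Both tested tags of Hspa4l were lower in both day 21 libraries.

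The stress-inducible genes of the cytosol were near the limit of detection and none could be tested. Hspa1a, the heat-inducible HSP70, had 0 and 2 counts on day 21 and 16 and 5 counts in untreated mice, all from the tag CATGaagagcgccgtggaggacgag in its coding sequence (chr17:34970258-34970282). That tag also matches Hspa1b, a near-identical copy, so the counts may belong to either gene. The tags at the last NlaIII sites of both genes, which differ, were at 0 in all libraries. Dnajb1, the J-domain partner of HSP70 in the heat shock response, had 0 and 0 counts against 3 and 7. Hspb1, a small heat shock protein, had 0 and 0 against 2 and 2, Hsph1, a large HSP70-type protein, had 2 and 0 against 2 and 6, and Hspb8 was at 0. The day 21 libraries held fewer counts in each of these genes that had any, and the groups met only at Hsph1, where a library of each had 2. Of the 16 cytosolic members that had counts but were too low to test, 13 had fewer counts on day 21, 1 had more and 2 had equal numbers, although the day 21 libraries were also the smaller ones. The same tally over all genes too low to test was not made, so these counts have no background beside them. Without the filter the median log2 change of all genes was -0.19, against -0.07 with it.

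Among J-domain proteins, Dnaja1, which works with HSP70 in the cytosol and on the way to mitochondria, was at 6.28 and 2.85 CPM on day 21 and 21.1 and 6.95 CPM in untreated mice. The groups did not overlap, but the lower untreated library lay close to the higher day 21 one. The log2 change was -1.58 ± 0.84 (edgeR adjusted p = 0.955), and it was -0.58 without untreated replicate 1. Its main tag also matches 2 other genes. Dnajb6, a suppressor of protein aggregation, and Dnajc7, which bridges HSP70 and HSP90, were lower in both day 21 libraries, at 2.57 against 5.60 CPM and at 4.28 against 8.18 CPM on average. Dnaja2 was at 13.7 and 4.98 against 9.33 and 14.3 CPM, with overlap.

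Dnajc5, the cysteine string protein, a J-domain protein anchored to secretory vesicles, was the member with the largest positive change. It was at 56.0 and 57.0 CPM on day 21 and at 8.84 and 21.2 CPM in untreated mice. The day 21 libraries were nearly equal and both were above the untreated ones. The log2 change was 1.90 ± 0.71, 3.73-fold higher, with an adjusted p of 0.529 in edgeR's test. With 1 library left out it ran from 1.41 to 2.69, and its smallest adjusted p over all settings was 0.0691, without untreated replicate 2. The main tag matched Dnajc5 alone, at the last NlaIII site in the 3′ UTR (chr2:181551853-181551877), and had 86 and 63 counts against 9 and 43 counts.
Dnajc5 last-site tag: CATGcaagctcatcctgtgcagtgg
Dnajb13, a J-domain protein known from sperm and cilia, had 23 and 10 counts against 14 and 12, or 13.1 and 7.12 against 6.87 and 4.90 CPM.

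The CCT complex is a double ring, each ring built of 1 copy of each subunit. The subunits are needed in equal numbers, yet their tags were not equally frequent. By mean level on day 21 and in untreated mice, Cct8 was at 489 ± 39.9 and 582 ± 15.3 CPM (SD, n = 2) and Cct7 at 352 ± 10.7 and 474.5 ± 134.9 CPM. Cct5 followed at 61.0 ± 1.74 and 82.0 ± 20.9 CPM, and Cct4 at 11.1 ± 0.53 and 16.8 ± 1.23 CPM. Cct2, Cct6a and Cct3 lay between 4.28 and 9.97 CPM in both groups, and Tcp1 had 7 and 3 counts on day 21 against 10 and 13, too few to test. The counted tags of Cct6a matched only transcripts of the gene without an annotated coding sequence, or none. Its level and its change may therefore not stand for the mRNA of the subunit. A SAGE tag counts a transcript whatever its length, so these levels were not divided by length. They are sums over all tags of a gene, some of which lie before the last NlaIII site. The levels thus depend on the place of these sites and may depend on their number.

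All 7 tested CCT subunits had a negative log2 change, from -0.60 (Cct4) to -0.06 (Cct3), and none passed. With 1 library left out Cct2, Cct3 and Cct6a turned positive (up to 0.34, 0.37 and 0.25), Cct5 and Cct7 came as near to 0 as -0.11, without untreated replicate 2 and without untreated replicate 1, and Cct4 and Cct8 stayed at or below -0.52 and -0.14. In Cct4, Cct5, Cct7 and Cct8 both day 21 libraries were below both untreated ones. Cct7 was at 345 and 360 CPM against 570 and 379 CPM, and Cct8 at 517 and 461 against 571 and 592 CPM. Cct2, Cct3 and Cct6a overlapped between groups, and Cct3 and Cct6a had a positive change when the most abundant tag alone was used (0.06 and 0.14). Unlike most members, Cct7 and Cct8 were read almost wholly at the final NlaIII site of 1 transcript form, by coding tags in the last exon of Cct7-203 (chr6:85468171-85468195) and of Cct8-203 (chr16:87484036-87484060). Longer transcripts of both genes have listed tags further into the 3′ UTR, at 0 in all libraries.
Cct7 last-site tag: CATGccttattgtgtccgtggatga
Cct8 last-site tag: CATGgcaaaaccagctggtgggccc
The Cct7 tag had 584 and 480 counts on day 21 and 1116 and 873 counts in untreated mice, and the Cct8 tag 893 and 634 against 1156 and 1421 counts. Scaled to library size, both day 21 libraries were lower at each tag.

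**Figure D3:**
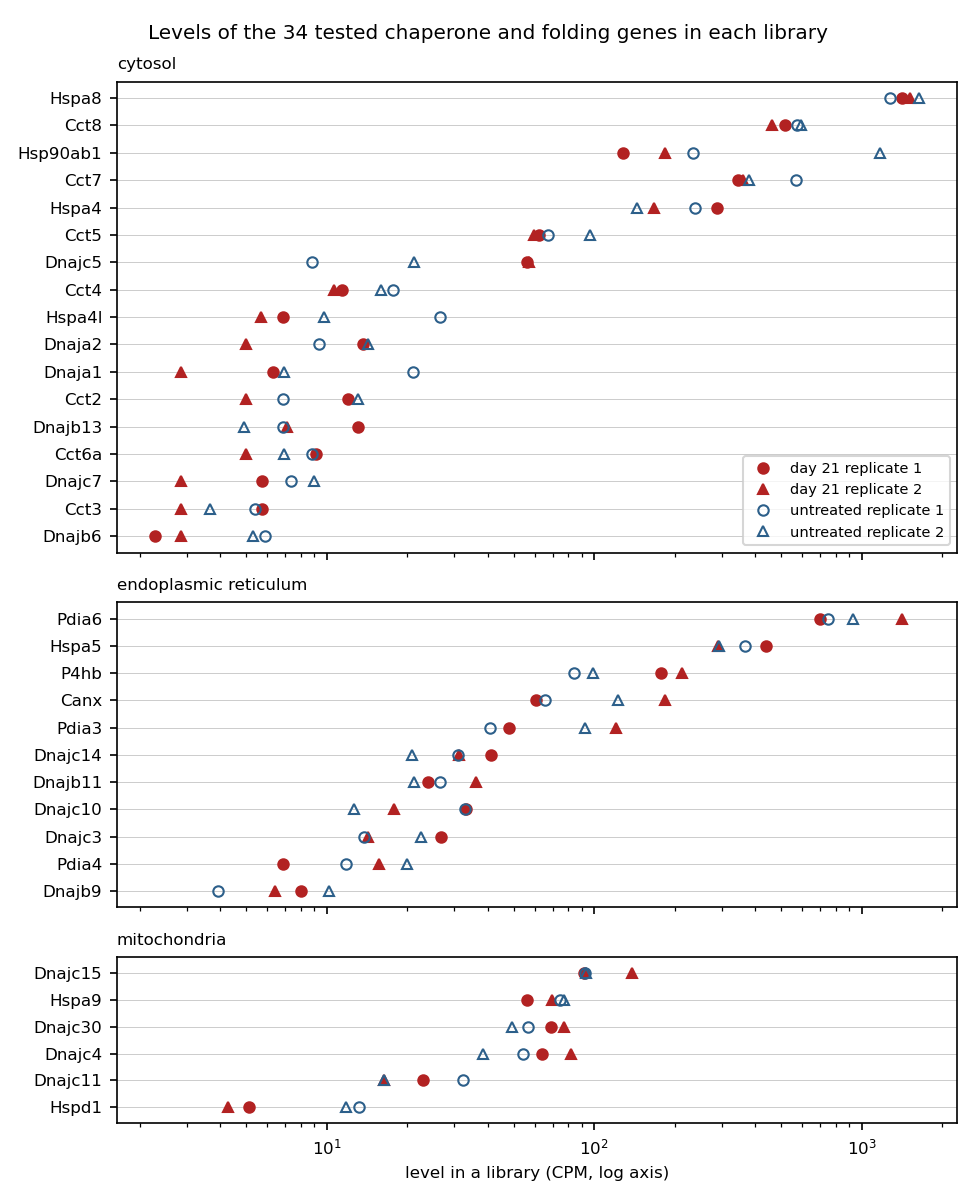
Level of each tested gene (CPM, log axis) in each library, filled red for day 21 and open blue for untreated, circles for replicate 1 and triangles for replicate 2. Hspa8, Pdia6 and Cct8 have the highest means over the 4 libraries, Hsp90ab1 has 1 untreated library at 1171 CPM, and P4hb and Dnajc5 have both day 21 points right of both untreated ones.

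In the endoplasmic reticulum the protein disulfide isomerases make and rearrange disulfide bonds. P4hb, the founding isomerase of the family, had the largest positive change of the compartment. It was at 178 and 212 CPM on day 21 and 84.4 and 98.9 CPM in untreated mice, and the groups did not overlap. The log2 change was 1.09 ± 0.61, 2.13-fold higher, and did not pass (edgeR adjusted p = 0.994). It kept its sign in all 13 alternatives run, from 0.41 with last-site tags to 1.33 with the most abundant tag. All 4 tested tags of P4hb had positive changes, from 0.20 to 1.33.

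Pdia6 was at 699 and 1420 CPM on day 21 and 748 and 928 CPM in untreated mice. Day 21 replicate 2 was far above the other libraries, and without it the log2 change of 0.34 ± 0.56 became -0.23. Nearly all its counts came from 1 tag in the 3′ UTR, 1 NlaIII site before the last (chr12:17284109-17284133), with 1223 and 1992 counts against 1523 and 2270 counts.
Pdia6 main tag: CATGcggccactggaaactgccaac
Pdia3, which folds glycoproteins together with calnexin and calreticulin, was at 48.0 and 120 CPM against 40.7 and 92.8 CPM, and Pdia4 at 6.86 and 15.7 against 11.8 and 20.0 CPM. In both genes replicate 2 was above replicate 1 in each group, and the groups overlapped. Pdia4, with a log2 change of -0.51 ± 0.76, was the 1 tested gene of the compartment with a negative change.

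Hspa5 (BiP), the HSP70 of the endoplasmic reticulum and the classic readout of folding stress there, was at 438 and 291 CPM on day 21 and at 365 and 294 CPM in untreated mice. The log2 change was 0.15 ± 0.58, which gives a 1.11-fold difference. It was -0.06 with total counts and -0.27 with last-site tags, so no direction can be given. Its J-domain partners were Dnajb11 at 24.0 and 36.3 against 26.5 and 21.2 CPM, Dnajc10 at 33.1 and 17.8 against 32.9 and 12.7 CPM, and Dnajc3 at 26.9 and 14.2 against 13.7 and 22.5 CPM, all with overlap. Dnajb9, a J-domain gene induced by misfolded proteins, had 14 and 9 counts against 8 and 25, a log2 change of 0.02 ± 0.81. Dnajc14, a J-domain protein of the membrane of the endoplasmic reticulum, was at 41.1 and 31.3 against 30.9 and 20.8 CPM, both day 21 libraries above the untreated ones by a narrow margin. Grp94 (Hsp90b1), the HSP90 partner of BiP, was at 88.0 and 137 against 75.6 and 139 CPM, a log2 change of 0.07 ± 0.63.

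Of the 2 lectin chaperones, Canx (calnexin) was at 60.6 and 184 CPM on day 21 and 65.8 and 123 CPM in untreated mice, a log2 change of 0.38 ± 0.66. Replicate 2 was the higher library in each group, and the log2 change was -0.60 without day 21 replicate 2. Calr (calreticulin), usually an abundant transcript, had 6 and 6 counts on day 21 and 10 and 19 counts in untreated mice, below the filter. All its counts came from 1 tag in exon 4 of 9, in the coding sequence at the last NlaIII site of the transcript. Of the 6 genes of this compartment with counts too low to test, 4 had fewer counts on day 21 and 2 more. This tally too has no background over all genes beside it.

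In mitochondria, Hspd1 (HSP60), which forms the folding chamber of the matrix, was at 5.14 and 4.27 CPM on day 21 and 13.3 and 11.8 CPM in untreated mice. Both groups were tight and did not overlap. The log2 change was -1.40 ± 0.79, 2.63-fold lower, and did not pass (edgeR adjusted p = 0.995). The counts behind it were 9 and 6 against 27 and 29, and the sign was negative in all 13 alternatives (-2.31 to -1.24). The last-site tag of Hspd1 held 54.9% of its counts, with 5 and 0 on day 21 against 17 and 17. The next tag, which also matches another gene, had 4 and 4 counts against 3 and 5, so the tags did not all show the fall. Hspe1 (HSP10), the lid of that chamber, had 2 counts in untreated replicate 2 and 0 in the other libraries, so it could not be compared. Hspa9 (mortalin), the HSP70 that pulls proteins into the matrix, was at 56.0 and 69.8 against 74.6 and 77.2 CPM, a log2 change of -0.27 ± 0.62 with no overlap.

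Dnajc15 and the import-associated Dnajc19 assist the mitochondrial HSP70. Dnajc15 was at 91.4 and 139 CPM against 92.3 and 93.2 CPM, and Dnajc19 had 7 and 4 counts against 8 and 3. Dnajc30 was at 69.1 and 76.9 against 56.4 and 49.4 CPM and Dnajc4 at 64.0 and 81.9 against 54.0 and 38.4 CPM. In Dnajc30 and Dnajc4 both day 21 libraries were higher, with log2 changes of 0.46 ± 0.63 and 0.66 ± 0.64. Dnajc11, a protein of the membranes of mitochondria, was at 22.9 and 16.4 against 32.4 and 16.3 CPM, with the untreated libraries further apart than the group means.

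Tags were also described by their place in the transcript. Of 181 member tags with a count, 180 matched a GENCODE M21 transcript of their own gene, 154 matched 1 gene and 43 lay at the last NlaIII site of a complete protein-coding transcript. Tags at the last site held 30.5% and 20.8% of the members' counts in the day 21 libraries and 37.8% and 26.8% in the untreated ones (exact 95% intervals 29.5% to 31.5%, 19.9% to 21.8%, 36.9% to 38.8% and 26.1% to 27.5%). Over all genes the share was 67.7% to 80.5%. In the endoplasmic reticulum it was lowest, at 12.9% and 5.12% on day 21 and 14.5% and 9.39% in untreated mice (11.7% to 14.2%, 4.39% to 5.92%, 13.2% to 15.8% and 8.51% to 10.3%). Replicate 2 had the lower share in each group.

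Tags of 1 gene did not always move together. Of 14 members with several tested tags, 8 had tags of both signs. Among last-site tags 6 of 20 had a positive change, with a median of -0.36, and among the other tags 23 of 42, with a median of 0.14, while the median of all tested tags was -0.03. Genes of the endoplasmic reticulum made up a larger part of the other tags than of the last-site tags. The split was not made within compartments or over all tested tags. Hspa5 is an example of a gene with tags of both signs. Its tag at the start of the coding sequence (exon 1 of 8, chr2:34772321-34772345) had 472 and 274 counts on day 21 against 412 and 413 counts, while its last-site tag in the 3′ UTR (chr2:34776399-34776423) had 181 and 62 against 252 and 178 counts.
Hspa5 exon 1 tag: CATGatgaagttcactgtggtggcg
Hspa5 last-site tag: CATGtggtgtaggaacttttttcta
The log2 change was 0.30 ± 0.61 for the first and -0.44 ± 0.70 for the second. In Canx the tag of exon 12 (77 and 209 against 58 and 178 counts) had a change of 0.93 ± 0.76 and a 3′ UTR tag 1 site before the last (12 and 10 against 43 and 38 counts) had -1.41 ± 0.76.
Canx exon 12 tag: CATGgctttgggtggtctacatttt
Canx 3′ UTR tag: CATGtaacagttgtgtcttaaaatt
The difference between tags of a gene was not tested. With last-site tags alone, 20 members could be tested, 0 passed, and 4 of 6 genes of the endoplasmic reticulum and 3 of 12 of the cytosol had a positive change.

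**Figure D4:**
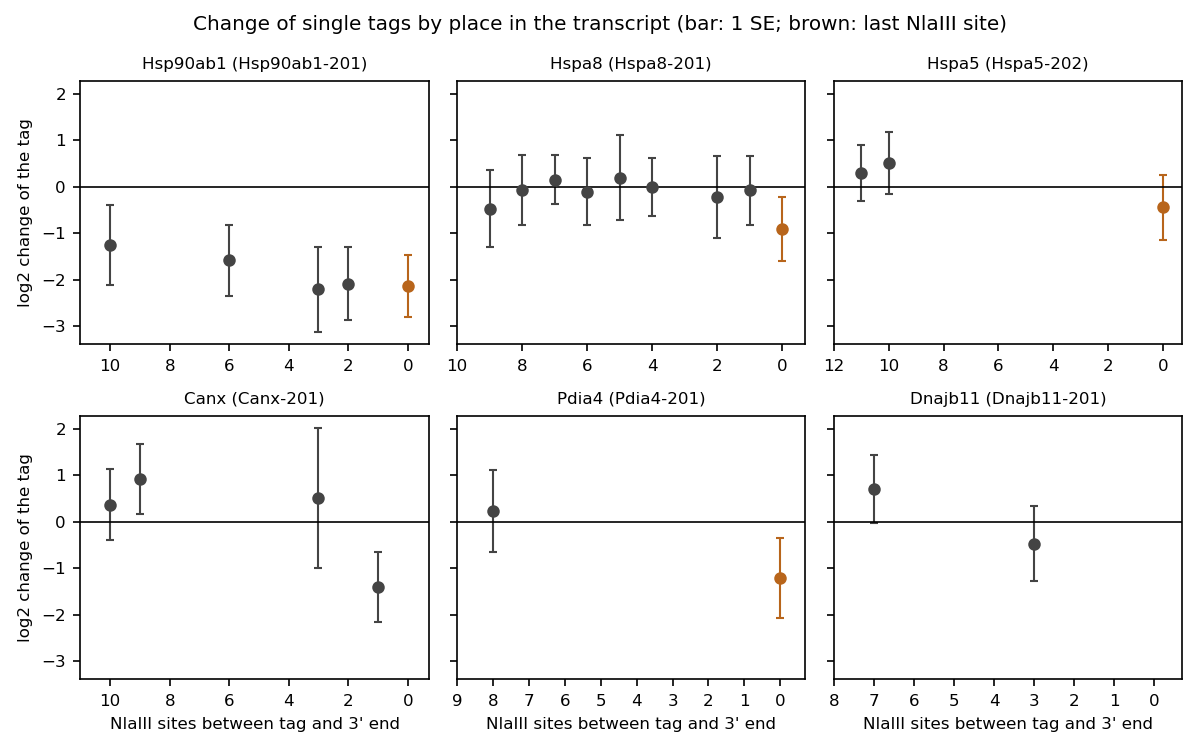
Log2 change of single tags (1 standard error as bars) of 6 genes against the number of NlaIII sites between the tag and the 3′ end of the named transcript, with the last site at 0 on the right in brown. All 5 tags of Hsp90ab1 lie below 0, while Hspa5, Canx, Pdia4 and Dnajb11 have tags above 0 upstream and below 0 nearer the 3′ end.

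The promoters of the members hold short elements known from the heat shock and unfolded protein responses. RefSeq promoter windows (GRCm38.p6, 250 bases before to 50 after a start site) were found for 62 of the 76 members and not for Cct4, Dnajc11, Dnajc12, Dnajc18, Dnajc2, Dnajc22, Dnajc30, Dnajc5, Hsp90aa1, Hsp90ab1, Hspa13, Hspa8, Hspa9 and Hspb2. A heat shock element, read as GAA, TTC and GAA with any 2 bases after the first and after the second triplet and sought on both strands, occurred in 4 of the 62 (Dnajb6, Hspd1, Hspe1 and Hsph1), or 6.45%, against 0.662% of 27025 genes. The endoplasmic reticulum stress element, CCAAT and CCACG with any 9 bases between them, also on both strands, occurred in 5 of the 62 (Calr, Canx, Dnajc3, Hspa5 and Pdia6), or 8.06%, against 0.137%. The motifs do not overlap each other in these promoters. The matches are shown with their fixed letters in capitals, because they group the members by a feature that no count entered.
Dnajb6 heat shock element, chr5:29735852-29735864: cgaGAAtcTTCcgGAAcgc
Hspd1 and Hspe1 heat shock element, chr1:55088059-55088071: ccgGAAggTTCtaGAAcgg
Hsph1 heat shock element, chr5:149636288-149636300: ggaGAActTTCcaGAAtct
Calr stress element, chr8:84847075-84847093: gggCCAATgagggtcgaCCACGcgt
Canx stress element, chr11:50325800-50325818: tgaCCAATcaccacgctCCACGaag
Dnajc3 stress element, chr14:118937827-118937845: caaCCAATcagcgccaaCCACGacc
Hspa5 stress element, chr2:34772025-34772043: tcaCCAATcggaggcctCCACGacg
Pdia6 stress element, chr12:17266491-17266509: agaCCAATgaaaggcggCCACGgcg
Those of Dnajb6, Canx, Dnajc3, Hspa5 and Pdia6 are written along the gene and those of Hsph1 and Calr along the other strand. Hspd1 and Hspe1 share 1 promoter region and point away from each other, and the element shown runs along Hspd1. A second match overlaps it on the other strand.

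Among the members searched, those with a heat shock element had low counts. Hsp90aa1, Hsp90ab1, Hspa8 and Hspa9 had no promoter window to search, and the heat-inducible Hspa1a, Hspb1 and Dnajb1 did not match this strict pattern. Dnajb6 and Hspd1, the 2 that were tested, had log2 changes of -1.11 ± 1.01 and -1.40 ± 0.79. Members with the stress element of the endoplasmic reticulum included the abundant Pdia6 and Hspa5, and the 4 that were tested had changes from 0.15 to 0.38. Calr, which also has this element but was too low to test, was at 3.43 and 4.27 CPM on day 21 against 4.91 and 7.76 CPM, both day 21 libraries lower. Whether an element goes with a direction of change was not tested. Of all 11 tested genes of that compartment 10 had a positive change, with a median of 0.33. Canx, Hspa5 and Pdia6 changed sign in some alternatives. None of these passed the test, and a match to a motif is not a measured binding site.

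Genes that work with the chaperones were read from a list of 90, of which 46 were tested. Of these, 0 were higher and 0 lower at an adjusted p under 0.05 in edgeR's test, 0 had an unadjusted p under 0.05, and 17 had a positive change, with a median of -0.16. Co-chaperones of HSP70 and HSP90 in the cytosol had a positive change in 1 of 11, with a median of -0.82. Cdc37, which brings kinases to HSP90, was at -0.17 ± 0.55, Ahsa1, which activates the ATPase of HSP90, at -0.82 ± 0.65, and Bag5, an exchange factor of HSP70, at -0.16 ± 0.61 on the log2 scale. Stub1, the ubiquitin ligase that sends chaperone clients to the proteasome, was the positive one at 0.44 ± 0.54. Ptges3 (p23), which steadies HSP90 on its clients and was named after its values were seen, had the smallest p of the list, with 31 and 16 counts on day 21 and 73 and 103 counts in untreated mice (log2 change -1.41 ± 0.71, edgeR adjusted p = 0.922). Hsf1, the main transcription factor of the heat shock response, had a log2 change of 0.11 ± 0.75.

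Regulators of the unfolded protein response had 3 tested genes of 9. Xbp1, a transcription factor of the response, was at -0.02 ± 0.65, while Herpud1, a membrane protein in the clearance of misfolded proteins, and Ppp1r15a, which restarts translation after stress, were at 1.04 ± 0.65 and 1.15 ± 0.77. Herpud1 was at 70.8 and 74.8 CPM on day 21 and 33.4 and 37.2 CPM in untreated mice, without overlap. Folding partners in the endoplasmic reticulum were split, with 4 of 8 positive, among them Erp29 (-0.06 ± 0.55), Sdf2l1 (0.49 ± 0.57), Tmx1 (-0.24 ± 0.62) and Fkbp2 (0.33 ± 0.62). Quality control genes had 4 of 9 positive, with Edem2 at 0.37 ± 0.57, Os9 at 0.72 ± 0.69 and Selk at -0.36 ± 0.71.

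Prefoldin and tubulin folding factors, which work beside CCT, had 1 of 6 positive, with Tbcc at -0.18 ± 0.67, Tbca at -0.34 ± 0.65, Pfdn5 at -0.96 ± 0.75 and Tbcb at 0.27 ± 0.83. Prolyl isomerases and factors of the nascent chain had 1 of 4 positive, Fkbp1a at 0.34 ± 0.61, beside Ppia at -0.40 ± 0.61, Naca at -0.48 ± 0.63 and Btf3 at -1.36 ± 0.86. Mitochondrial partners had 3 of 4 positive, with Clpp at 0.47 ± 0.67, Lonp1 at 0.55 ± 0.76, Trap1, the HSP90 of mitochondria, at 1.41 ± 0.99 and Timm44 at -0.02 ± 0.65. Trap1 had 11 and 20 counts on day 21 and 0 and 18 counts in untreated mice.

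**Figure D5:**
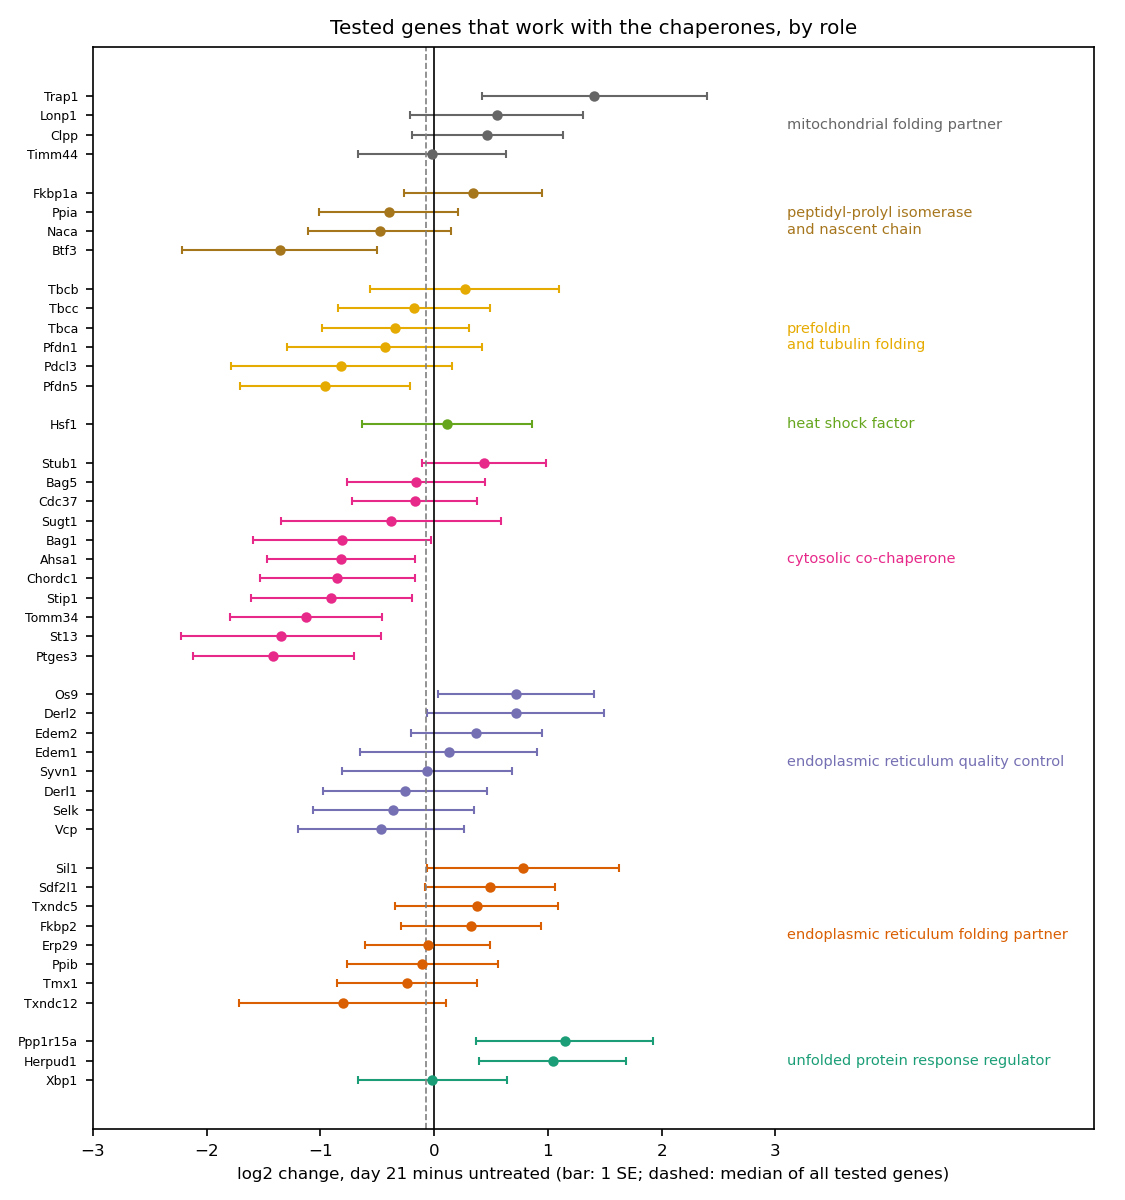
Log2 change (day 21 minus untreated, bars of 1 standard error) of 45 of the 46 tested genes that work with the chaperones, grouped by role, with a solid line at 0 and a dashed line at the median of all tested genes (-0.07). In the group of cytosolic co-chaperones 10 of 11 points lie left of 0, down to Ptges3 at -1.41, while the groups of the endoplasmic reticulum lie on both sides. In 2 of these 11 co-chaperones both day 21 libraries were below both untreated ones.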

How the data were processed

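The authors deposited raw counts per 21-base tag with a gene symbol and RefSeq accession, per the file headers. The submitters' processing notes name mm9; how tags were matched and which counts were removed was not given in the sources used here. Counts of all tags of a deposited symbol were summed. Differences were tested over the whole table with edgeR 4.0.16 (R 4.3.3), quasi-likelihood test, TMM normalisation, filterByExpr (minimum count 10, minimum total 15), group as the only term and Benjamini-Hochberg adjustment over 2979 genes. CPM use the TMM-scaled counts of the tested genes. A standard error is the size of the log2 change over the root of the test's F. DESeq2 1.42.0 was an alternative, as were other scalings, filters, tags, names and left-out libraries. Tags were matched after CATG to GENCODE M21 transcripts (GRCm38), leaving out transcripts with an unfinished 3′ end when the last NlaIII site was sought.

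Members named with values were those past the threshold, the 8 most abundant and the 3 of smallest p in each direction in each compartment, the CCT subunits, the stress-inducible genes and the highest untested member. From the list of partners, the 4 most abundant tested genes of each role were named, except 1 that is counted but not reported here. Dnaja2, Dnajb6, Dnajc3, Dnajc7, Dnajc19, Hspe1, Hsp90aa1, Grp94 and Ptges3 fall outside these rules, and their values were known when they were named. Members, lists and rules were chosen with earlier results of these data known.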

Additional observations from a re-analysis of the deposited data

How the results depend on the processing

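In all 13 alternatives 0 members passed the threshold. Of 30 named tested members, 17 kept their direction in every alternative run for them and 13 did not. Each group had 2 libraries, and 25 members with counts were too low to test. Total counts alone moved the median of all tested genes from -0.07 to -0.29, the median of the endoplasmic reticulum to 0.046, that of mitochondria to -0.22 and the summed mitochondrial level to a log2 ratio of -0.038 (0.20 with TMM), and turned Dnajb9 (-0.21), Dnajc10 (-0.0097), Hspa5 (-0.056) and Hspa8 (-0.23). Without a filter on low counts 26 of 59 members were positive (17 of 34 with it, fewer genes being tested) and the mitochondrial median was 0.34. With the most abundant tag of each gene the mitochondrial median was -0.0091, Cct3 was at 0.060, Cct6a at 0.14 and Dnajb9 at -0.045. With last-site tags, an alternative chosen after seeing the data, 8 of 20 members were positive, the mitochondrial median over 2 genes was -0.65, Cct3 was at 0.24, Hspa5 at -0.27 and Hspa8 at -0.80. The cause of these changes of sign was not tested.

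Leaving out 1 library in turn moved the mitochondrial median from -0.021 to 0.29. Log2 changes that changed sign ran from -0.60 to 1.02 for Canx, -0.94 to 0.34 for Cct2, -0.60 to 0.37 for Cct3, -0.60 to 0.25 for Cct6a, -0.49 to 0.89 for Dnajb9, -0.34 to 1.01 for Dnajc10, -0.70 to 0.27 for Dnajc11, -0.14 to 0.65 for Hspa4, -0.13 to 0.44 for Hspa5, -0.16 to 0.22 for Hspa8, -0.44 to 1.07 for Pdia3, -1.18 to 0.030 for Pdia4 and -0.23 to 0.81 for Pdia6.

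The labels give both groups replicates 1 and 2, without saying that a number marks shared mice or days. Deviations of same-numbered libraries correlated at 0.54 across genes. With the replicate number as a block, 0 members passed (smallest adjusted p = 0.0879) and 6 had an unadjusted p under 0.05 (2 without the block). The share of all genes at that unadjusted threshold was not counted with the block, so the 6 cannot be set against a background. Genes called over the whole table went from 20 higher and 2 lower to 28 higher and 9 lower.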
